A study of Mus musculus with 25 samples.

Results

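The bacteria described here are the amplicon sequence variants (ASVs, distinct 16S rRNA gene sequences left after error removal) whose family in the deposited taxonomy was Erysipelotrichaceae, or whose genus was Breznakia, Erysipelatoclostridium or Amedibacillus. This choice gave 63 of 1555 ASVs and 1981 of 300831 counts, or 0.659% of all counts. All 63 carried the family name, and none was added by its genus name alone. The feces of C57BL/6 mice were profiled by full-length PacBio sequencing of the 16S rRNA gene in 25 libraries, 5 in each of the groups OVX+FMT, OVX+PBS, OVX+GEX, OVX and Sham. OVX usually stands for ovariectomy, which all groups but Sham carry, and FMT for a transplant of fecal microbiota; PBS is a saline buffer. GEX is not spelled out in the labels; the design text speaks of a traditional medicine given in estrogen deficiency. Ages, doses, times and the donors of the transplanted feces are not stated, and the labels record the mice as male, which does not go with an ovariectomy.

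Erysipelotrichaceae are anaerobic Firmicutes of the class Erysipelotrichia that live by fermentation in the gut of mice, humans, other vertebrates and insects. In mice the family is known for large shifts with dietary fat and for links to host lipid and bile acid metabolism. Its names have been revised often, so that several species moved here from Clostridium and Eubacterium and keep their old name in brackets. The values below are shares of a library's 16S counts, so a share can fall because other bacteria grew, and absolute numbers of bacteria were not measured.

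The members fell into 6 genera, and 1 of them held most: Breznakia, a genus described from insect guts, had 39 ASVs and 1299 counts, 65.6% of the member counts. All 39 carried the species name Breznakia pachnodae, that of a beetle larva isolate. Erysipelatoclostridium had 5 ASVs and 421 counts under 3 bracketed Clostridium names: cocleatum, known for degrading mucin in the mouse gut (206 counts, 1 ASV), spiroforme, a coiled species known from rabbit enteritis (128 counts, 3 ASVs), and saccharogumia, known for converting plant lignans (87 counts, 1 ASV). Amedibacillus had 12 ASVs and 136 counts, all named Amedibacillus dolichus, formerly Eubacterium dolichum. Holdemania, a sugar fermenter known from human feces, had 5 ASVs and 105 counts. Erysipelothrix, a genus better known for animal pathogens, had 1 ASV with 17 counts, and Longibaculum had 1 ASV with 3 counts, both under the filter on low counts. Such names are those of the nearest entry in a taxonomy database that the sources used here do not name.

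Among 29 other names of the order Erysipelotrichales that were looked for, 4 had counts: Holdemania, Erysipelothrix and Longibaculum among the members, and Turicibacter, a spore former of the mouse gut that the taxonomy places in the family Turicibacteraceae. The other 25 names had 0 counts in all 25 libraries, among them Faecalibaculum, Dubosiella, Ileibacterium and Allobaculum, which are known from mouse feces. In libraries of 8498 to 22404 counts, a count of 0 still leaves room for 3 counts, which is 0.0353% in the smallest library. Turicibacter had 7 ASVs and 701 counts and was not among the members.

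The summed share of the members was 0.830%, 1.38%, 0.795%, 0.453% and 0.263% of the counts in the OVX+FMT libraries 1 to 5. It was 0.492%, 0.160%, 0.308%, 0.292% and 0.226% in OVX+PBS and 0.818%, 0.752%, 0.473%, 1.15% and 0.381% in OVX+GEX. It was 0.524%, 0.388%, 0.196%, 1.33% and 0.695% in OVX and 1.53%, 0.738%, 0.812%, 0.821% and 0.652% in Sham. The OVX+PBS libraries were all low, at 0.160% to 0.492%, while each of the other 4 groups held 1 library above 1%. The 95% Wilson interval was 0.101% to 0.253% for the lowest library (18 counts, OVX+PBS replicate 2) and 1.31% to 1.79% for the highest (149 counts, Sham replicate 1), and it covers counting error only.

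Group means were 0.745% ± 0.429 in OVX+FMT, 0.296% ± 0.124 in OVX+PBS, 0.715% ± 0.306 in OVX+GEX, 0.627% ± 0.435 in OVX and 0.911% ± 0.353 in Sham (SD, n = 5 each). The order from the highest was Sham, OVX+FMT, OVX+GEX, OVX and OVX+PBS. Neighbours in this order differed by less than the smaller of both SDs, except OVX+PBS and OVX, whose gap of 0.332 percentage points was larger but whose libraries overlapped. A single test over the 5 groups gave an adjusted p of 0.194 for the family in edgeR's quasi-likelihood test (Benjamini-Hochberg over 28 families), where 2 families, 7.14%, passed the threshold of 0.05.

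**Figure D1:**
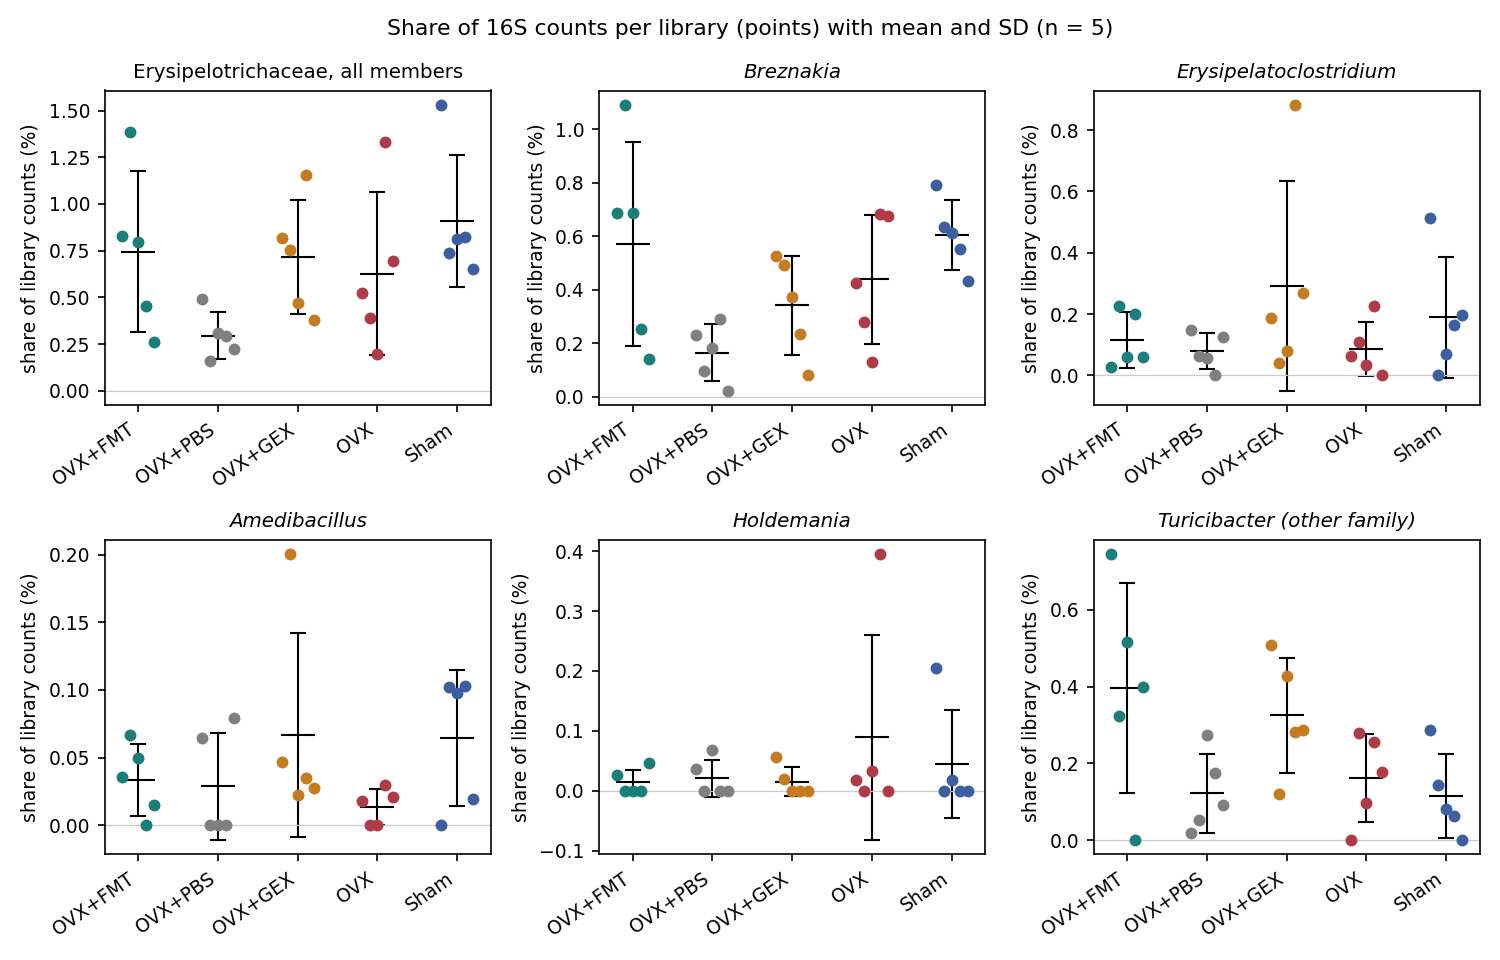
Share of each library's 16S counts (y axis, %) for all Erysipelotrichaceae members, 4 of their genera and Turicibacter of the neighbouring family, by group (x axis). Points are libraries, horizontal marks are means and bars are SD (n = 5). The 5 OVX+PBS libraries lie at 0.160% to 0.492% for all members, below the lowest Sham library at 0.652%, and single libraries stand far above the rest for Erysipelatoclostridium, Amedibacillus and Holdemania.

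Breznakia was found in all 25 libraries and was the most abundant member genus in 22 of them. Its share was 0.687%, 1.09%, 0.685%, 0.253% and 0.142% in the OVX+FMT libraries and 0.230%, 0.0978%, 0.183%, 0.292% and 0.0226% in OVX+PBS. OVX+GEX held 0.526%, 0.491%, 0.372%, 0.235% and 0.0836%, OVX 0.427%, 0.280%, 0.131%, 0.682% and 0.674%, and Sham 0.791%, 0.635%, 0.610%, 0.553% and 0.434%. The Sham libraries were high and close together, the OVX+PBS libraries low, and 3 of the 5 OVX+FMT libraries lay in or above the Sham range. In OVX+PBS replicate 5 Breznakia rested on 2 counts, with a 95% Wilson interval reaching 0.0825%. The 5 groups together gave an adjusted p of 0.386 for Breznakia by edgeR over 81 genera, of which 3, or 3.7%, passed.

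Erysipelatoclostridium was found in 22 libraries. It had 6, 24, 6, 19 and 12 counts in OVX+FMT, 32, 7, 5, 0 and 11 in OVX+PBS, 20, 4, 7, 75 and 29 in OVX+GEX, 7, 12, 3, 23 and 0 in OVX, and 50, 0, 12, 37 and 20 in Sham. All groups overlapped. The highest value, 0.883% in OVX+GEX replicate 4, came from 75 counts of a single ASV, ASV_170, which is the cocleatum ASV and had 0 to 24 counts in every other library. The mean share in OVX+GEX was 0.292% ± 0.342 (SD, n = 5) and 0.144% without that library. The second highest, 0.514% in Sham replicate 1, came mostly from ASV_279, a spiroforme ASV with 37 counts there. The saccharogumia ASV, ASV_313, was more even: it was seen in 14 libraries, 2 or 3 in every group, with at most 19 counts.

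Amedibacillus dolichus, known for blooms in mice on a Western diet, was sparse, with 0 to 23 counts per library. It was seen in 4 of 5 OVX+FMT, 2 of 5 OVX+PBS, 5 of 5 OVX+GEX, 3 of 5 OVX and 4 of 5 Sham libraries. In Sham, 3 libraries held 10, 17 and 23 counts, whereas no OVX library held more than 3. The mean shares were 0.0334% ± 0.0265 in OVX+FMT, 0.0287% ± 0.0397 in OVX+PBS, 0.0666% ± 0.0754 in OVX+GEX, 0.0136% ± 0.0132 in OVX and 0.0645% ± 0.0504 in Sham (SD, n = 5 each). Of the OVX+GEX counts, 20 of 33 came from replicate 2, and without it the OVX+GEX mean was 0.0332%. The OVX+PBS mean of Amedibacillus was 0.0161% without replicate 5.

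Holdemania was seen in 11 libraries, and single libraries held most of its counts. OVX replicate 4 had 40 counts (0.395%), Sham replicate 1 had 20 (0.205%), and the remaining 23 libraries had 0 to 9. Without OVX replicate 4 the OVX mean was 0.0126%, against 0.0891% ± 0.172 with it (SD, n = 5). Those 40 counts were not from 1 sequence: ASV_482 gave 25 of them and ASV_518 gave 10. The genus Erysipelothrix had 12 counts in OVX+FMT replicate 1, 2 in Sham replicate 1 and 3 in Sham replicate 3, and 0 elsewhere.

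**Figure D2:**
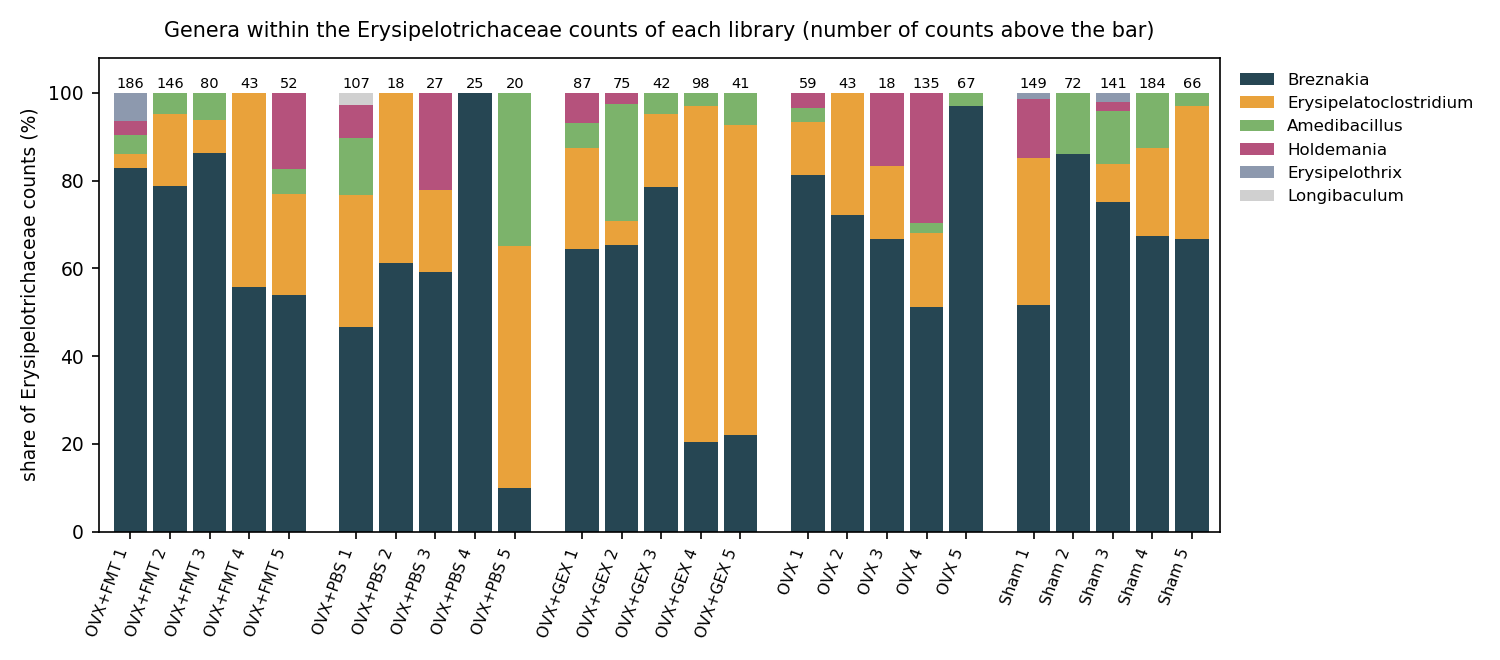
Share of each member genus in the Erysipelotrichaceae counts of a library (y axis, %), for the 25 libraries by group (x axis), with the number of counts above each bar. Breznakia is the most abundant genus in 22 libraries; OVX+GEX replicates 4 and 5 and OVX+PBS replicate 5 are led by Erysipelatoclostridium.

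Within the family, Breznakia held 71.5% ± 15.5 of the member counts in OVX+FMT, 55.4% ± 32.3 in OVX+PBS, 50.1% ± 27.0 in OVX+GEX, 73.6% ± 17.1 in OVX and 69.4% ± 12.6 in Sham (SD, n = 5 each). These shares do not depend on how many counts the rest of the community took. The 3 libraries in which another genus led were OVX+GEX replicates 4 and 5, with 20.4% and 21.95% Breznakia, and OVX+PBS replicate 5, where Breznakia had 2 of only 20 member counts. OVX+PBS replicate 4 lay at the other end, with Breznakia as its only member genus (25 counts).

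A genus sums its ASVs, so a single ASV cannot be seen in more libraries than its genus. Of the 63 member ASVs 26, or 41.3%, were seen in 1 library, close to the 39.1% of all 1555 ASVs, and they held 5.65% of the member counts. No member ASV was seen in more than 16 libraries. The ASV with the most Breznakia counts differed between libraries: 10 ASVs led or tied for the lead somewhere, and the leader held 23.2% to 100% of the library's Breznakia counts with a median of 41.5%. ASV_128 led most often, in 7 libraries, of which 3 were Sham. In OVX, 5 different ASVs led in the 5 libraries: ASV_554, ASV_519, ASV_520, ASV_175 and ASV_128. ASV_519 and ASV_554 were seen in 3 and 4 libraries, did not pass the filter, and are named after their values were seen.

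At least 3 counts in at least 5 libraries were found for 16 member ASVs, which held 81.9% of the member counts: 10 Breznakia, 3 Erysipelatoclostridium, 1 Amedibacillus and 2 Holdemania. Of these 16, 10 were seen in all 5 groups. ASV_128 had 0, 40, 0, 0 and 0 counts in OVX+FMT, 8, 0, 0, 0 and 0 in OVX+PBS, 11, 15, 10, 13 and 0 in OVX+GEX, 0, 0, 0, 0 and 27 in OVX, and 15, 30, 32, 80 and 7 in Sham. It was thus the 1 member ASV found in all 5 Sham libraries, and was found in 4 of 5 OVX+GEX libraries but in 1 library each of OVX+FMT, OVX+PBS and OVX. By edgeR over 379 ASVs, the log2 fold change of ASV_128 was -2.12 (SE 2.08, adjusted p = 0.903) for OVX against Sham. It was 0.98 (SE 2.02, unadjusted p = 0.631) for OVX+GEX against OVX, and the adjusted p over the 5 groups was 0.643. ASV_225 contrasted with ASV_128 mainly in Sham, and was seen beside it in 5 libraries. It had 0 counts in all 5 Sham libraries, 2 counts in 1 OVX library, and counts in 3 of 5 libraries each of OVX+FMT (46, 10 and 16), OVX+PBS (21, 3 and 3) and OVX+GEX (9, 20 and 5).

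Against a floor of 3 counts per Sham library, the mean share of ASV_225 was at least 3.77-fold higher in OVX+FMT, at least 1.30-fold higher in OVX+PBS and at least 2.80-fold higher in OVX+GEX than in Sham. Single libraries carried much of this. Without OVX+PBS replicate 1, which held 21 of 27 counts, the OVX+PBS mean of ASV_225 was 0.0154%, under the Sham floor of 0.0244%, and no bound remained. Without OVX+GEX replicate 2 the bound for OVX+GEX was 1.45-fold, and without any 1 OVX+FMT library that for OVX+FMT was 2.60-fold or more. Its edgeR adjusted p-values over 379 ASVs were 0.113, 0.130 and 0.151 for these comparisons. The unadjusted edgeR p of ASV_225 over the 5 groups was 0.0486 and its adjusted p 0.184. In that test 26.4% of the 379 ASVs had an unadjusted p under 0.05 and 5.01% passed. ASV_128 had an adjusted p of 0.193 for OVX+PBS against Sham. ASV_520 had counts in 4 Sham libraries (4, 8, 4 and 9), in 1 OVX library (10), in 1 OVX+GEX library (3) and in 0 of the 10 OVX+FMT and OVX+PBS libraries. Its test over the 5 groups gave an adjusted p of 0.117. The comparisons of OVX+FMT, OVX+PBS and OVX+GEX with Sham were added after the values were seen.

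The remaining Breznakia ASVs were spread more widely or more thinly. ASV_186 (184 counts, 15 libraries) and ASV_317 (86 counts, 16 libraries) were seen in 2 or more libraries of every group. ASV_175 had 199 counts in 13 libraries, 69 of them in OVX+FMT replicate 1. ASV_402 and ASV_423 had 58 and 53 counts in 11 and 9 libraries. ASV_588 (30 counts) had 0 counts in OVX+PBS and OVX+GEX, and ASV_640 (26 counts) had 0 in Sham. The Amedibacillus ASV that passed, ASV_429, had 52 counts in 11 libraries, with 4 to 15 per group.

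**Figure D3:**
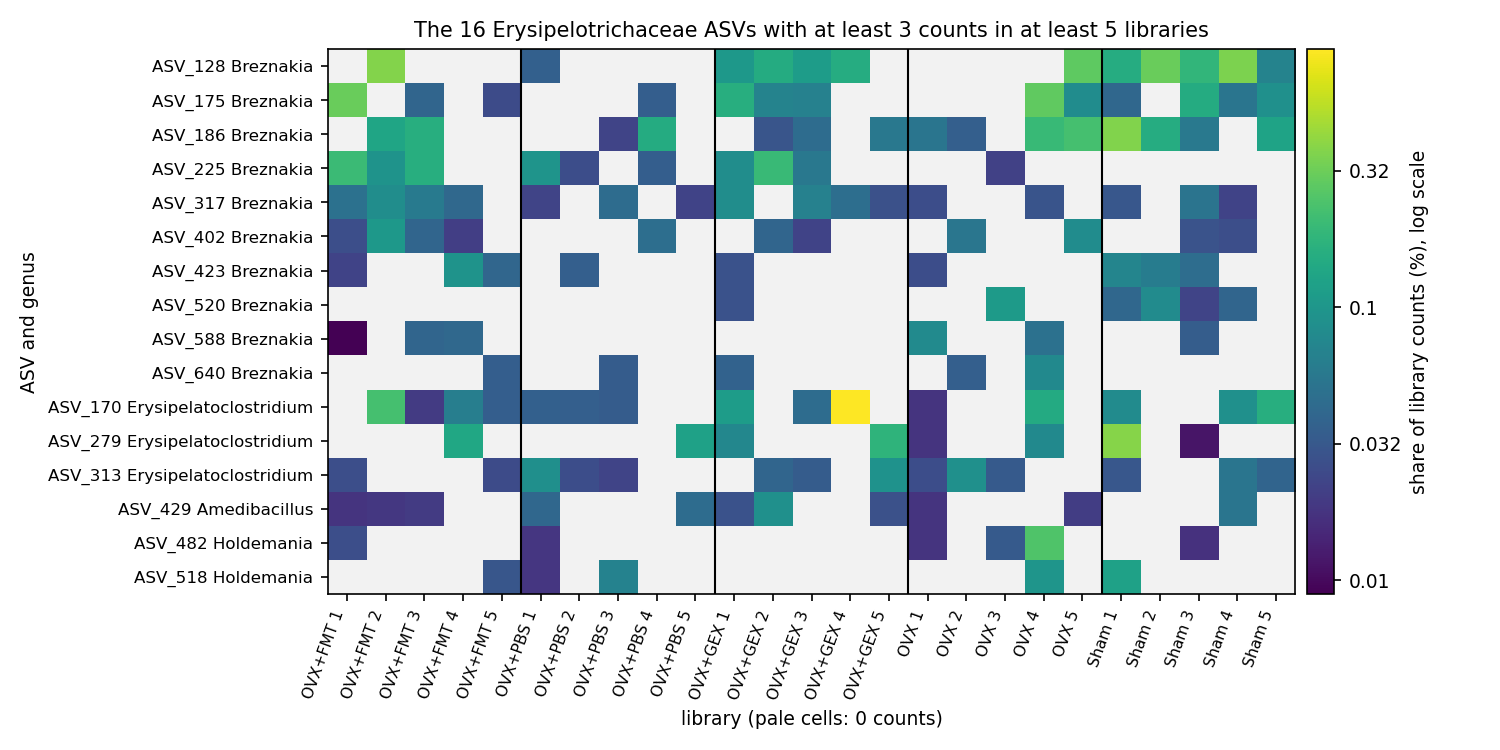
Share of library counts (colour, %, log scale; pale cells are 0 counts) of the 16 Erysipelotrichaceae ASVs with at least 3 counts in at least 5 libraries (rows), in the 25 libraries by group (columns). ASV_128 fills all 5 Sham columns and 4 of 5 OVX+GEX columns, while ASV_225 is empty in Sham and filled in 3 of 5 columns each of OVX+FMT, OVX+PBS and OVX+GEX.

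Counted at an equal depth of 8498 reads, the expected number of member ASVs per library was 10.6 ± 1.82 in OVX+FMT, 7.49 ± 4.36 in OVX+PBS, 8.18 ± 3.10 in OVX+GEX, 8.28 ± 3.95 in OVX and 12.3 ± 4.43 in Sham (SD, n = 5 each). The ranges of all groups overlapped. The highest OVX+PBS library, replicate 1, had 14.5. Of the member ASVs, 11 were seen in Sham libraries alone, 8 in OVX+FMT alone, 6 in OVX+PBS alone and 3 each in OVX+GEX alone and OVX alone, with fewer reads in the last 2 groups. The 26 member ASVs seen in 1 library, 41.3% of members beside 39.1% of all ASVs, are among them by construction. The share of all ASVs seen in a single group was not computed, so these counts do not show bacteria particular to a group.

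The first comparison the design implies is OVX against Sham, which asks what estrogen deficiency does to these bacteria. The family averaged 0.627% in OVX and 0.911% in Sham, with 3 of 5 OVX libraries below all Sham libraries and OVX replicate 4 above 4 of them. Its log2 fold change was -0.95 (SE 0.49, edgeR adjusted p = 0.309 over 28 families) after TMM scaling (factors that align the bulk of features between libraries), -0.54 with plain library totals and 0.02 with no filter on low counts. The median of the 28 families was -0.21 and -0.06 under the first pair of scalings. Breznakia averaged 0.439% ± 0.242 in OVX and 0.605% ± 0.130 in Sham (SD, n = 5 each), which is a log2 fold change of -0.46 with plain totals. After TMM scaling the edgeR estimate for Breznakia was -0.06 (SE 0.62, adjusted p = 0.946 over 81 genera), and without Duncaniella and Ligilactobacillus in the totals it was 0.14. The median of the 81 genera was 0.15 after TMM scaling and -0.22 with plain totals. TMM factors were set for families and genera separately, so the TMM estimates of the family and of Breznakia are not on the same scale. Erysipelatoclostridium (-0.75, SE 1.15), Amedibacillus (-1.78, SE 1.42) and Holdemania (1.25, SE 1.72) each had an adjusted p of 0.872 by edgeR. Of 4 member genera 0 passed and 0 had an unadjusted p under 0.05, against 0% of the 81 genera passing and 11.1% with such a p; DESeq2 and limma passed 0 members too. Of 16 member ASVs 0 passed and 1, ASV_640, had an unadjusted p under 0.05, against 0% and 17.2% of the 379 ASVs.

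The second comparison is OVX+GEX against OVX, taken here as the traditional medicine of the design text against no treatment, although the labels do not say so. The family averaged 0.715% in OVX+GEX and 0.627% in OVX and the libraries overlapped throughout. The log2 fold change was 0.99 (SE 0.49, edgeR adjusted p = 0.201), but the median of all 28 families was 0.80 on the same TMM scale, and with plain totals the family was at 0.19 and the median at 0.13, and with no filter the family was at -0.05. The mean of Erysipelatoclostridium was 0.292% ± 0.342 in OVX+GEX libraries, against 0.0861% ± 0.0884 in OVX libraries (SD, n = 5 each), with an edgeR log2 fold change of 2.14 (SE 1.19). Amedibacillus had a log2 fold change of 2.54 (SE 1.46), and both genera had an edgeR adjusted p of 0.566. For the Amedibacillus shares, the exact two-sided permutation test gave p = 0.0317, with an adjusted p of 0.643. In each genus, 1 OVX+GEX library stood far above the others, as given above. On the other side, the OVX mean of Erysipelatoclostridium was 0.0508% without OVX replicate 4. Breznakia stood at 0.342% ± 0.184 in OVX+GEX libraries, against 0.439% ± 0.242 in OVX libraries, an edgeR log2 fold change of -0.26 (SE 0.63, adjusted p = 0.979). Holdemania had a log2 fold change of -2.35 (SE 1.82, adjusted p = 0.760), which turned to 0.18 without OVX replicate 4. By edgeR, DESeq2 and limma 0 of 4 member genera passed, with 0 at an unadjusted edgeR p under 0.05, against 0% and 6.17% of all genera. Of 16 member ASVs 0 passed and 3 had an unadjusted p under 0.05, against 0% and 19.3% of all ASVs: ASV_482, ASV_518 and ASV_588, all at 0 counts in OVX+GEX. ASV_482 was at least 1.92-fold lower in OVX+GEX against the floor of 3 counts per library, but 25 of its 30 OVX counts were in OVX replicate 4, and without that library the OVX mean was 0.0126%, under the floor of 0.0310%, with no bound left. For the other ASVs the OVX mean was under that floor with all libraries. All 5 same-numbered pairs of these groups had weak correlations of 0.136 to 0.211, and the same number was the best match in 3 of 5. With the number as a replicate block in an edgeR fit of these groups alone, added after the values were seen, the family stood at 0.99 (adjusted p = 0.599) and Holdemania at -1.10. In that fit 1 of 28 families and 1 of 81 genera passed, neither a member; without the block, 1 family and 0 genera passed in the fit of these groups alone, and 0 of each with all groups in the fit.

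The third comparison sets OVX mice given a fecal transplant against those given PBS. The mean share of the family was 0.745% in OVX+FMT libraries, against 0.296% in OVX+PBS libraries. Of the OVX+FMT libraries, 3 lay above all OVX+PBS libraries, and OVX+FMT replicates 4 and 5 lay within their range. The log2 fold change was 0.59 (SE 0.49, edgeR adjusted p = 0.486) after TMM scaling and 1.33 with plain totals, beside medians of 0.30 and 0.80 over the 28 families, of which 1, or 3.57%, passed. Breznakia stood at 0.572% ± 0.381 in OVX+FMT libraries, against 0.165% ± 0.107 in OVX+PBS libraries (SD, n = 5 each), a log2 fold change of 1.76 (SE 0.65). This was the 1 member genus with an unadjusted p under 0.05 (0.0107; adjusted p = 0.289 by edgeR over 81 genera), against 14.8% of all genera with such a p and 0% passing. The exact two-sided permutation test of its shares gave p = 0.0635, with an adjusted p of 0.482. Erysipelatoclostridium (0.27, SE 1.15), Amedibacillus (-0.16, SE 1.40) and Holdemania (0.22, SE 1.76) had adjusted p-values of 0.958, 0.961 and 0.961, and their directions turned with the setting. Estimates for 12 of 16 member ASVs were above 0 and for 3 below 0, beside 226 and 133 of all 379, with medians of 1.21 and 0.49, and 0 passed; the 47 other member ASVs were under the filter. ASV_588 alone had an unadjusted p under 0.05, as had 21.1% of all ASVs. DESeq2 and limma passed 0 member genera and 0 member ASVs.

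The last comparison sets OVX mice given PBS against OVX mice with no further treatment in the labels. The family's mean share was 0.296% in OVX+PBS libraries, against 0.627% in OVX libraries, and that of Breznakia 0.165% ± 0.107 in OVX+PBS libraries, against 0.439% ± 0.242 in OVX libraries (SD, n = 5 each). The family's log2 fold change was -0.23 (SE 0.49, edgeR adjusted p = 0.810) after TMM scaling and -1.08 with plain totals, where the medians over families were 0.19 and -0.40. Breznakia's was -1.28 (SE 0.64, adjusted p = 0.336) and -1.40, beside medians over genera of -0.47 and -0.65. Amedibacillus (1.56, SE 1.45) and Holdemania (-1.91, SE 1.77) each had an adjusted p of 0.589, and Erysipelatoclostridium (0.27, SE 1.16) one of 0.997. By edgeR, DESeq2 and limma 0 of 4 member genera passed, with 0 at an unadjusted edgeR p under 0.05, against 0% and 13.6% of all genera. Of 16 member ASVs 0 passed and 2, ASV_520 and ASV_588, had such a p, against 0% and 24.8% of all ASVs. The same OVX libraries serve this comparison, the second and the first, and the same OVX+PBS libraries this one and the third.

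**Figure D4:**
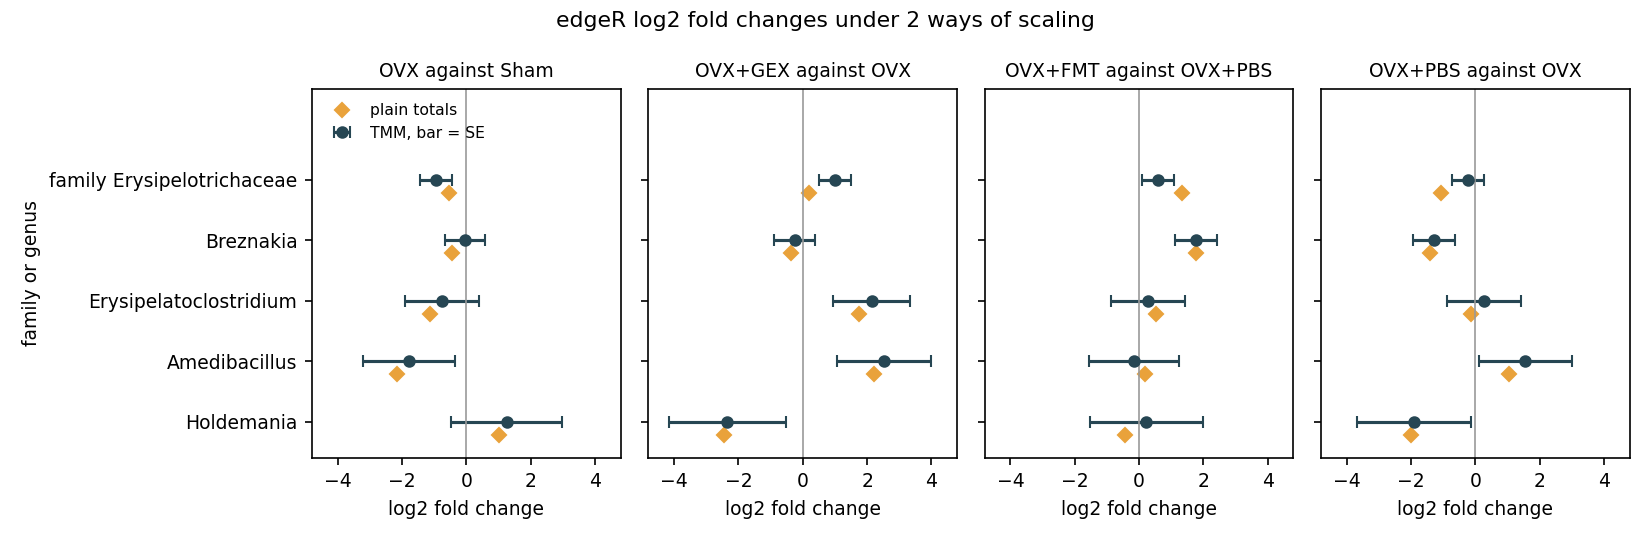
edgeR log2 fold changes (x axis) of the family and its 4 tested genera (rows) in the 4 comparisons (panels), after TMM scaling (circles, bars are SE) and with plain library totals (diamonds). The family in OVX+GEX against OVX moves from 0.99 under TMM to 0.19 with plain totals, and Breznakia in OVX+FMT against OVX+PBS is 1.76 and 1.78.

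Because the lowest and the highest group were OVX+PBS and Sham, that pair was also read from the same fit, after the values were seen. The family averaged 0.296% ± 0.124 in OVX+PBS and 0.911% ± 0.353 in Sham, and Breznakia 0.165% ± 0.107 in OVX+PBS and 0.605% ± 0.130 in Sham (SD, n = 5 each). All 5 OVX+PBS libraries lay below all 5 Sham libraries for both, as was so for 4 of 28 families (14.3%) and 6 of 81 genera (7.41%). The log2 fold changes were -1.18 (SE 0.50, edgeR adjusted p = 0.121) for the family and -1.34 (SE 0.64, adjusted p = 0.227) for Breznakia after TMM scaling, and -1.61 (adjusted p = 0.0607) and -1.87 (adjusted p = 0.118) with plain totals. Neither passed. For this pair the median of the 28 families was -0.24 after TMM scaling and -0.69 with plain totals. The median of the 81 genera was -0.48 after TMM scaling and -1.08 with plain totals. Among the other 5 added pairs the adjusted p of the family ran from 0.198 to 0.956.

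Turicibacter, of the neighbouring family, averaged 0.397% ± 0.273 in OVX+FMT, 0.122% ± 0.103 in OVX+PBS, 0.325% ± 0.149 in OVX+GEX, 0.162% ± 0.116 in OVX and 0.115% ± 0.109 in Sham (SD, n = 5 each), where the last value was 0.0716% without Sham replicate 1. Sham and OVX+PBS differed by 0.00746 percentage points, far less than either SD, so their order is not settled. Its edgeR adjusted p over the 5 groups was 0.403, and 0.355 for OVX+FMT against OVX+PBS.

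Of the 77 other genera tested, those with the highest Spearman rho with the summed share of the members over the 25 libraries were Sinanaerobacter, Anaerobacterium and Pseudoclostridium. By Pearson r the order was another. Clostridium had the highest r, 0.648 (permutation p = 0.00084, adjusted p = 0.0647) with a rho of 0.425, and Solibaculum had an r of 0.551 with a rho of 0.466. At the other end, Negativibacillus had the lowest rho, -0.578 (permutation p = 0.00265, adjusted p = 0.121), and an r of -0.461. Clostridium, Solibaculum and Negativibacillus are named after their values were seen. Sinanaerobacter had a Spearman rho of 0.570 (permutation p = 0.0036, adjusted p = 0.121 over 77 genera) and a Pearson r of 0.512 (permutation p = 0.00892, adjusted p = 0.137). Anaerobacterium had a rho of 0.552 (permutation p = 0.00473, adjusted p = 0.121) and an r of 0.533 (permutation p = 0.00601, adjusted p = 0.116), and Pseudoclostridium a rho of 0.503 (permutation p = 0.012, adjusted p = 0.230) and an r of 0.565 (permutation p = 0.00401, adjusted p = 0.107). None passed adjustment. Without Sham replicate 1 and OVX+FMT replicate 2, the libraries farthest from the median, r was 0.453, 0.458 and 0.675 in the same order, and with group means taken off 0.532, 0.563 and 0.560. Shares of 1 library add up to a fixed total and are not independent of each other.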

How the data were processed

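The deposited file held counts of reads per ASV and library with a taxonomy of 7 ranks, converted by the authors from a BIOM file, per the file headers. The submitters' processing notes name Subread, without a role; the sources used here do not give the denoiser, primers, database or filters. No value above 0 was under 2. Of 25 columns, 20 matched the sample titles and 5, spelled OVX+GES, were taken as OVX+GEX. Library totals ran from 8498 to 22404 (median 10123), and no replicates were duplicates (chi-square per degree of freedom at least 11.9). Counts were summed per family and genus. Features with at least 3 counts in at least 5 libraries (28 families, 81 genera, 379 ASVs) were tested with edgeR 4.0.16 (R 4.3.3): TMM factors per table, quasi-likelihood F test, all 25 libraries in 1 fit, Benjamini-Hochberg over the table, threshold 0.05; SEs come from the F statistic. The fits were tested on simulated data with large changes, placed in features with more counts than most member ASVs had. The simulated spread between libraries was a fixed setting, not estimated from these data, so the test does not show what could be recovered for the members. Replicate numbers were checked for pairing by whether every same-numbered pair correlated above 0.1, a cutoff not set against different-numbered pairs. OVX+GEX with OVX met it (5 of 5 pairs) and the other 3 comparisons did not (0, 2 and 0 of 5). The same number was the best match in 3 of 5 pairs of OVX+GEX with OVX and in 4 of 20 pairs in all. The labels state no pairing, and the check does not show one. DESeq2 1.42.0, limma 3.58.1 on centred log-ratios (0.5 added), other scalings and filters, exact permutation of shares, the replicate block and leaving out each library were alternatives. Nothing in the labels says whether mice shared a cage, and p-values thus reflect only how far these libraries spread. All member genera, ASVs that passed the filter and the 3 most similar genera are named; members and lists were chosen with earlier results of these data known.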

Additional observations from a re-analysis of the deposited data

Results flagged for a closer look

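A gap test (Dixon's, at 95%) was run on the 5 libraries of each group for the summed share of the members and for the 4 tested genera, 25 sets of values in all, of which chance alone flags about 1 in 20. That rate is for independent, normally distributed values. These shares are skewed, Holdemania and Amedibacillus hold many zeros, and the summed share contains the genera, so the rate does not apply closely here. This picked out 5 values in 4 libraries, each the highest of its group. Sham replicate 1 held 1.53% members, against 0.652% to 0.821% in the other 4 Sham libraries. In OVX+GEX, replicate 4 held 0.883% Erysipelatoclostridium, against at most 0.269% in the others, and replicate 2 held 0.2005% Amedibacillus, against at most 0.0470%. Holdemania stood at 0.395% in OVX replicate 4, against at most 0.0326% in the other OVX libraries, and at 0.205% in Sham replicate 1, against at most 0.0173% in the other Sham libraries. What sets these libraries apart was not tested.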

How the results depend on the processing

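No alternative and no left-out library brought the family, a member genus or a member ASV past the threshold in the 4 comparisons or over the 5 groups. For the exact permutation this says little, since libraries of 5 against 5 allow few splits. A few features alone could not pass its adjustment, whatever their values. The direction of the family turned for OVX against Sham without Duncaniella and Ligilactobacillus in the totals (0.0701) and with no filter (0.0205), and for OVX+GEX against OVX with no filter (-0.0538); the cause was not tested. Without 1 library at a time the family's log2 fold change ran from -1.17 to -0.35 for OVX against Sham, 0.10 to 1.22 for OVX+GEX against OVX, 0.41 to 1.18 for OVX+FMT against OVX+PBS and -1.02 to -0.01 for OVX+PBS against OVX, and the adjusted p over the 5 groups from 0.113 to 0.305. Same-numbered libraries were not shown to be paired in any comparison. With the replicate block, which changed no call of a member, Breznakia turned to 0.0621 for OVX against Sham and Amedibacillus to 0.0868 for OVX+FMT against OVX+PBS; without Duncaniella and Ligilactobacillus Breznakia stood at 0.14. For OVX+FMT against OVX+PBS, Erysipelatoclostridium turned to -0.0634 with DESeq2 size factors and -0.0602 by DESeq2, Amedibacillus to 0.18 (plain totals), 0.45 (limma), 0.32 (no filter) and 0.0047 percentage points (exact permutation), and Holdemania to -0.00248 (DESeq2 size factors), -0.44 (plain totals), -0.62 (limma), -0.0261 (no filter) and -0.0066 points. Erysipelatoclostridium turned for OVX+PBS against OVX to -0.13 (plain totals) and -0.0079 points.

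Leaving out 1 library also turned genera. For OVX against Sham, Breznakia ran from -0.35 to 0.17 (turned without OVX replicate 3, Sham replicate 1 or OVX+PBS replicate 5), Erysipelatoclostridium from -1.38 to 0.10 (Sham replicate 1) and Holdemania from -1.28 to 4.16 (OVX replicate 4). For OVX+FMT against OVX+PBS, Erysipelatoclostridium ran from -0.0715 to 0.69 (OVX+FMT replicates 2 and 4, OVX+PBS replicate 4), Amedibacillus from -0.49 to 1.14 (OVX+PBS replicates 1 and 5, OVX replicate 5) and Holdemania from -1.12 to 1.14 (OVX+FMT replicate 5, OVX+PBS replicates 2, 4 and 5). For OVX+GEX against OVX, Holdemania lay between -3.42 and 0.18 (turned without OVX replicate 4). For OVX+PBS against OVX, Holdemania lay between -2.83 and 0.62 (turned without the same library) and Erysipelatoclostridium between -0.21 and 0.90 (OVX+PBS replicate 5, OVX replicate 5). ASVs called over the 5 groups numbered 19, against 3 with DESeq2 size factors, 0 with plain totals, 7 by DESeq2, 8 by limma, 160 with no filter and 0 at a filter of 10 libraries; none was a member. Totals of 18 to 186 member counts per library limit what can be seen.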
